A study of Bos taurus with 16 samples.

Results

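Luteinizing hormone keeps the corpus luteum, the progesterone-secreting gland left in the ovary after ovulation, working through a receptor that raises cyclic AMP (cAMP). The genes described here are 8 components of that pathway and the prolactin receptor: GNAS, PRKACA, PRKACB, PRKAR1A, PRKAR2B, PDE4D, CREB1, CREM and PRLR. They were chosen by symbol from 10 named genes, taking for a repeated symbol the row with the highest mean level. The tenth, the luteinizing hormone receptor LHCGR, matched no symbol and was not analysed here. All 9 matched genes passed the filter on low values, an RPKM (reads scaled by gene length and library total) of at least 1 in at least 4 of 16 libraries, as did 13361 of the 27233 genes in the table. RPKM divides by gene length, so that levels of different genes can be set side by side.

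The 16 corpora lutea came from cattle that had been bred naturally and then inseminated, and only cattle found pregnant were used. There were 4 on each of days 14, 17, 20 and 23 of pregnancy, and no other treatment, strain or age is given in the sources used here. The series asks how mRNA abundance in this gland changes over early pregnancy, and no cattle without a pregnancy are compared here. P-values of limma set differences between days against the spread between samples of the same day. Those of the ratio tests come from regrouping the libraries of the days compared.

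As background, the luteinizing hormone receptor activates the stimulatory G protein, which switches on adenylyl cyclases that make cAMP. The cAMP binds regulatory subunits of protein kinase A (PKA) and frees its catalytic subunits, which phosphorylate, among others, the transcription factor CREB. Phosphodiesterases break cAMP down again. In luteal cells this pathway supports cholesterol delivery and progesterone synthesis. Prolactin receptors act through another route, Janus kinases and STAT transcription factors, and prolactin is a well-known luteal hormone of rodents.

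Libraries held 28.7 to 44.6 M reads, recovered from the RPKM steps, with a median of 33.9 M. All 9 marker genes of steroid-secreting luteal cells were above the filter, with summed levels of 15894 to 22922 RPKM over the 16 libraries in the tissue labelled corpus luteum. Markers of other cells were present too, with sums of 350 to 885 RPKM for pericytes and smooth muscle, 2318 to 7812 RPKM for fibroblasts and 16.8 to 60.7 RPKM for T and NK cells. The red blood cell sum, over 5 markers of which 2 passed the filter, was 2.72 to 23.9 RPKM on day 17, above every library of the other days at 0.53 to 2.28 RPKM. The day 17 libraries thus lay above the others in this sum, the lowest of them by little. Over the 16 libraries HBB had 0 to 21.8 RPKM, AHSP 0.45 to 2.22 RPKM and the other markers at most 0.24 RPKM. The highest sums therefore rest on HBB. The part of this sum in the comparisons with day 17 was not tested. All 10 endothelial markers passed the filter, and their summed level was 398 to 445 RPKM on day 23. That lay below every library of the other days. These had 451 to 682 RPKM on day 14, 542 to 628 RPKM on day 17 and 471 to 589 RPKM on day 20. The shift goes with each comparison of day 23 with another day, and its part in them was not tested. All 8 macrophage markers passed, and their sum was 247 to 348 RPKM on day 20, above all libraries of day 14 at 127 to 191 RPKM, while those of day 17 spanned 94.95 to 297 RPKM.

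None of the 9 genes differed between any pair of days, or over the 4 days together, at an adjusted p under 0.05 (limma on log2(RPKM + 1), Benjamini-Hochberg over 13361 genes). The same test called 0 (0%) of all genes in each of the 6 pairs of days and in the F test over all days, and the smallest adjusted p of any gene was 0.055, for day 23 against day 14. Limma's voom on the recovered reads also called 0 genes. What follows therefore gives levels and their spread, and in whole tissue fewer cells of a type and less mRNA per cell cannot be told apart.

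PRKAR1A, a regulatory subunit, was the highest of the 9 genes in all 16 libraries, with a mean level of 179 RPKM. PRKACA, a catalytic subunit, came next at 56.9 RPKM, and was above the stimulatory G protein gene GNAS, at 35.2 RPKM, in every library. PRKAR2B (28.4 RPKM), CREM (21.7 RPKM), PRKACB (16.9 RPKM) and PRLR (14.6 RPKM) lay closer together. GNAS stood above PRKAR2B, PRKAR2B above CREM, and CREM above PRKACB in 13 of 16 libraries each, and PRKACB above PRLR in 12, so the order of these neighbours was not the same in every animal. CREB1 (5.96 RPKM) was below PRLR and above PDE4D (2.59 RPKM) in all 16 libraries.

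**Figure D1:**
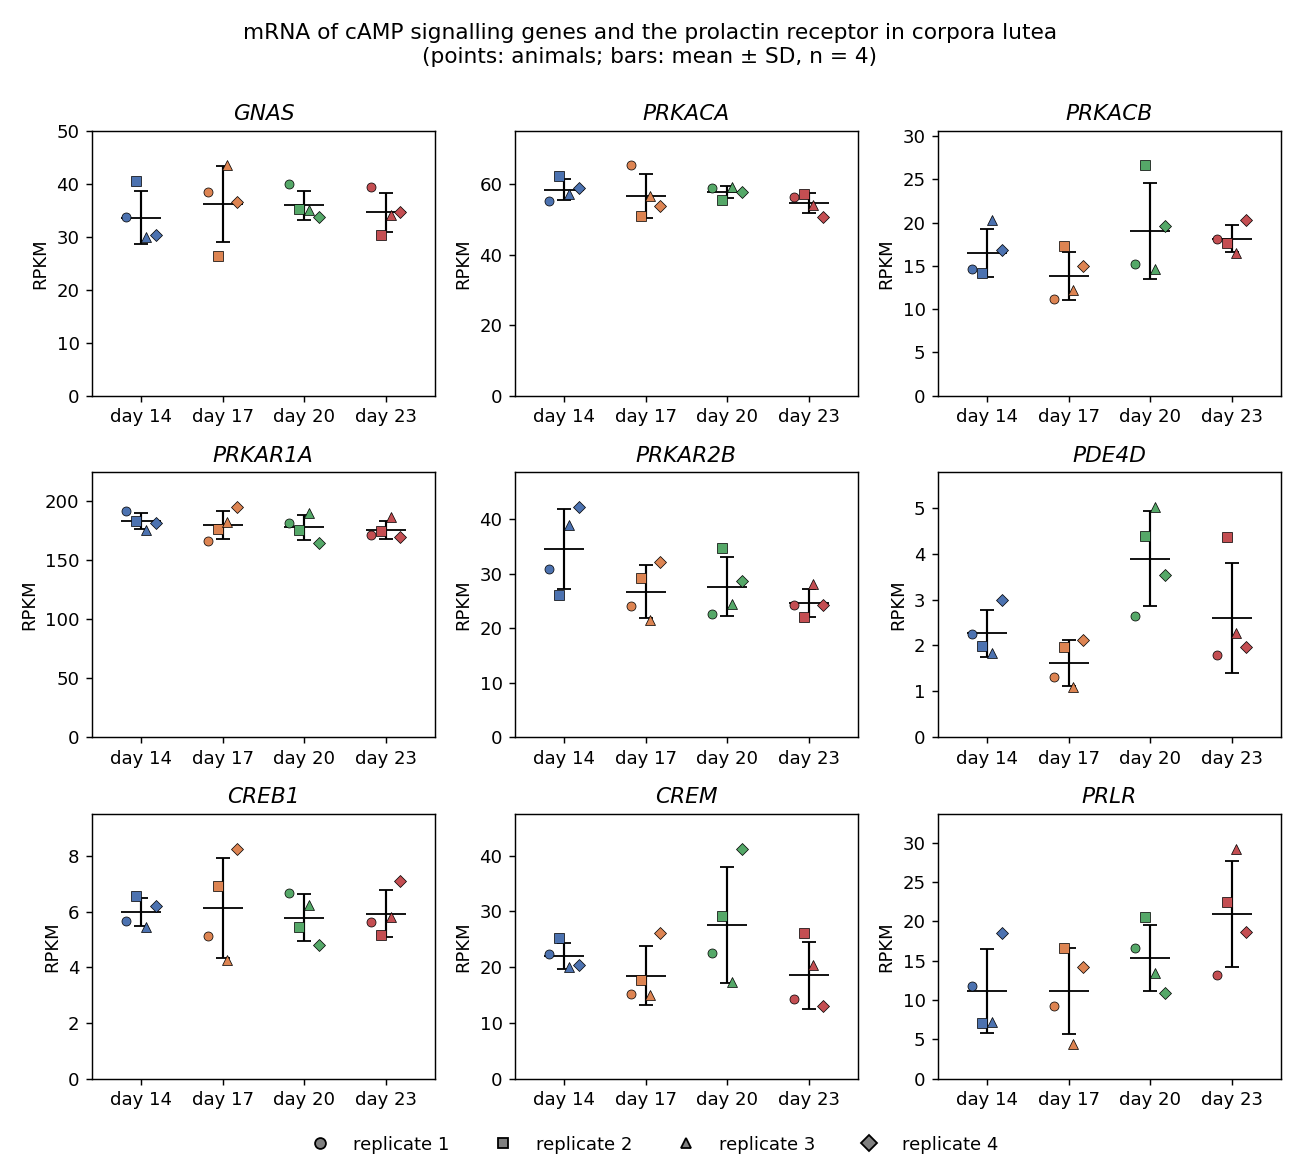
Level (RPKM, linear axis from 0) of each of the 9 genes in the 16 corpora lutea by day of pregnancy; each point is 1 animal, horizontal lines are means and error bars SD (n = 4). PRKAR1A stays within 164 to 195 RPKM in all libraries, PDE4D on day 20 (2.63 to 5.02 RPKM) lies above all libraries of day 17 (1.09 to 2.11 RPKM), and PRLR spans 4.43 to 29.3 RPKM.

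GNAS encodes the alpha subunit of the stimulatory G protein that couples the receptor to adenylyl cyclase. Its level was 33.8, 40.6, 30.0 and 30.3 RPKM on day 14, 38.6, 26.4, 43.5 and 36.7 on day 17, 40.03, 35.2, 35.1 and 33.8 on day 20, and 39.4, 30.4, 34.2 and 34.7 on day 23. The 4 days overlapped throughout, and both the lowest and the highest library were of day 17. The 95% intervals of its log2 differences between days all included 0 and reached from -0.34 to 0.39. The limma F test over the 4 days gave an adjusted p of 0.95. A second row with this symbol had only 0.0367 to 0.229 RPKM and was not used.

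PRKACA and PRKACB encode the alpha and beta catalytic subunits of PKA. PRKACA was at 55.3, 62.3, 57.2 and 58.9 RPKM on day 14, 65.3, 51.05, 56.6 and 53.8 on day 17, 58.8, 55.5, 59.1 and 57.7 on day 20, and 56.4, 57.3, 54.0 and 50.8 on day 23. Its means, 58.4 ± 2.97, 56.7 ± 6.16, 57.8 ± 1.63 and 54.6 ± 2.94 RPKM (SD, n = 4), lay within the spread of 1 day. The 95% intervals of its log2 differences all included 0 and reached from -0.25 to 0.19.

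PRKACB was lower and more spread, at 14.7, 14.2, 20.3 and 16.9 RPKM on day 14, 11.1, 17.3, 12.2 and 14.9 on day 17, 15.2, 26.6, 14.6 and 19.6 on day 20, and 18.1, 17.6, 16.5 and 20.3 on day 23. The lowest values were of day 17 and the highest was 1 library of day 20, replicate 2. Day 20 averaged 19.0 ± 5.53 RPKM, against 13.9 ± 2.77 RPKM on day 17 (SD, n = 4), a log2 difference of 0.41 ± 0.17 (SE) with an adjusted p of 0.57 by limma (unadjusted p = 0.033). Day 23 averaged 18.1 ± 1.59 RPKM, against the same day 17 libraries, a log2 difference of 0.38 ± 0.17 with an adjusted p of 0.41 (unadjusted p = 0.045). Both comparisons use day 17, so they do not stand apart from each other. Without replicate 2 of day 20, the log2 difference of day 20 against day 17 was 0.24.

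PRKAR1A and PRKAR2B encode regulatory subunits of the type I and type II PKA holoenzymes. PRKAR1A was the steadiest of the 9 genes, at 192, 183, 176 and 181 RPKM on day 14, 167, 176, 182 and 195 on day 17, 182, 175, 189.8 and 164 on day 20, and 171, 175, 186 and 169.7 on day 23. The highest library was 1.19 times the lowest. The SD within days was 0.076 on the log2(RPKM + 1) scale, smaller than in all but 2.56% of the genes tested, whose median was 0.18. Its log2 differences had 95% intervals that all included 0 and reached from -0.21 to 0.13.

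PRKAR2B was at 30.9, 26.1, 38.9 and 42.2 RPKM on day 14, 24.1, 29.2, 21.4 and 32.0 on day 17, 22.6, 34.8, 24.5 and 28.7 on day 20, and 24.2, 22.1, 28.1 and 24.2 on day 23. The 2 highest of all libraries were of day 14, yet replicate 2 of that day lay inside the range of each later day. The mean of day 23 was 24.6 ± 2.52 RPKM, against 34.6 ± 7.34 RPKM on day 14 (SD, n = 4), with a log2 difference of -0.45 ± 0.16 (SE) and an adjusted p of 0.25 by limma (unadjusted p = 0.014). For day 17 against day 14 the log2 difference was -0.35 ± 0.16 (adjusted p = 0.65, unadjusted p = 0.047), and for day 20 against day 14 it was -0.31 ± 0.16 (adjusted p = 0.68, unadjusted p = 0.078). These 3 comparisons share the day 14 libraries. The endothelial marker sum was also lower on day 23 than on day 14, as given above.

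Within a library, PRKACA made up 67.6% to 85.5% of the summed RPKM of the 2 catalytic genes. PRKAR1A made up 73.1% to 82.6% of the sum of the 4 regulatory genes, PRKAR2B 9.71% to 17.0%, PRKAR2A 4.79% to 7.76% and PRKAR1B 1.76% to 2.93%. The summed regulatory level over the catalytic one (mean ± SD, n = 4) was 3.20 ± 0.23 for day 14, 3.23 ± 0.38 for day 17, 2.95 ± 0.21 for day 20 and 3.02 ± 0.22 for day 23. These mRNA ratios say nothing of protein amounts.

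The ratio of PRKACB to PRKACA was 0.17 to 0.34 on day 17, 0.25 to 0.48 on day 20 and 0.31 to 0.40 on day 23, against 0.23 to 0.35 on day 14. The ratio of PRKAR2B to PRKAR1A was 0.12 to 0.17 on day 17, 0.12 to 0.20 on day 20 and 0.13 to 0.15 on day 23, against 0.14 to 0.23 on day 14. Each ratio on each later day overlapped that of day 14. The mean log2 ratio of PRKAR2B to PRKAR1A on day 23 was -2.84 ± 0.11, against -2.43 ± 0.35 on day 14 (SD, n = 4), a difference of -0.41 (exact two-sided permutation test, p = 0.086, adjusted p = 0.39 over 9 ratio tests). With 4 against 4 libraries no p below 0.0286 was possible.

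**Figure D2:**
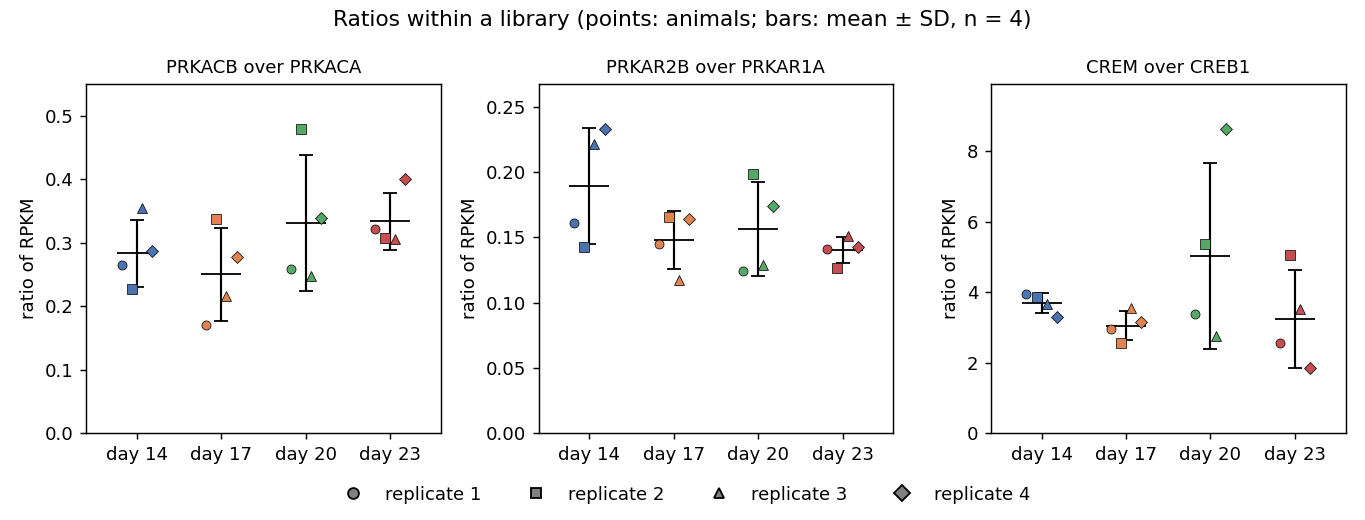
Ratios of RPKM within a library (linear axes from 0) for PRKACB over PRKACA, PRKAR2B over PRKAR1A and CREM over CREB1, by day of pregnancy; points are animals, horizontal lines means and error bars SD (n = 4). Libraries of all later days overlap those of day 14 in each ratio, and the widest spread is that of CREM over CREB1 on day 20, 2.76 to 8.62.

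PDE4D encodes a phosphodiesterase that breaks down cAMP. It was the lowest of the 9 genes, with 177 to 885 reads per library. Its level was 2.24, 1.99, 1.83 and 2.99 RPKM on day 14, 1.31, 1.97, 1.09 and 2.11 on day 17, 2.63, 4.38, 5.02 and 3.54 on day 20, and 1.79, 4.36, 2.28 and 1.96 on day 23. The 4 libraries of day 20 lay above all 4 of day 17, while 1 library of day 14 and 1 of day 23 reached into the range of day 20.

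Day 20 averaged 3.89 ± 1.04 RPKM of PDE4D, against 1.62 ± 0.50 RPKM on day 17 (SD, n = 4), a ratio of means of 2.40. On the log2(RPKM + 1) scale, which understates the change of so low a gene, the difference was 0.89 ± 0.21 (SE). Its adjusted p was 0.36 by limma, and its unadjusted p of 0.00076 was the smallest of any of the 9 genes in the 6 comparisons. PDE4D was the only one of the 9 whose libraries did not overlap between a pair of days, and 4.56% of all genes tested did not overlap between days 20 and 17. Against day 14, at 2.264 ± 0.52 RPKM, day 20 differed by 0.57 ± 0.21 (adjusted p = 0.46, unadjusted p = 0.017). Day 23, at 2.60 ± 1.19 RPKM, differed from day 20 by -0.47 ± 0.21 (adjusted p = 0.69, unadjusted p = 0.043), and these comparisons share libraries.

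Differences between days made up 57.2% of the variance of PDE4D over the 16 libraries. Of all genes tested, 4.01% had a larger share, and the median was 22.4%. The limma F test over the 4 days gave PDE4D an adjusted p of 0.25 (unadjusted p = 0.0065). The authors' deposited table, whose header does not name the comparison, lists it with an adjusted p of 0.0191. PDE4D was the only one of the 9 under 0.05 there, where 3.33% of 15806 genes were, and the others had 0.234 or more. The macrophage marker sum was also highest in mean on day 20, as given above, and its part in the PDE4D values was not tested.

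**Figure D3:**
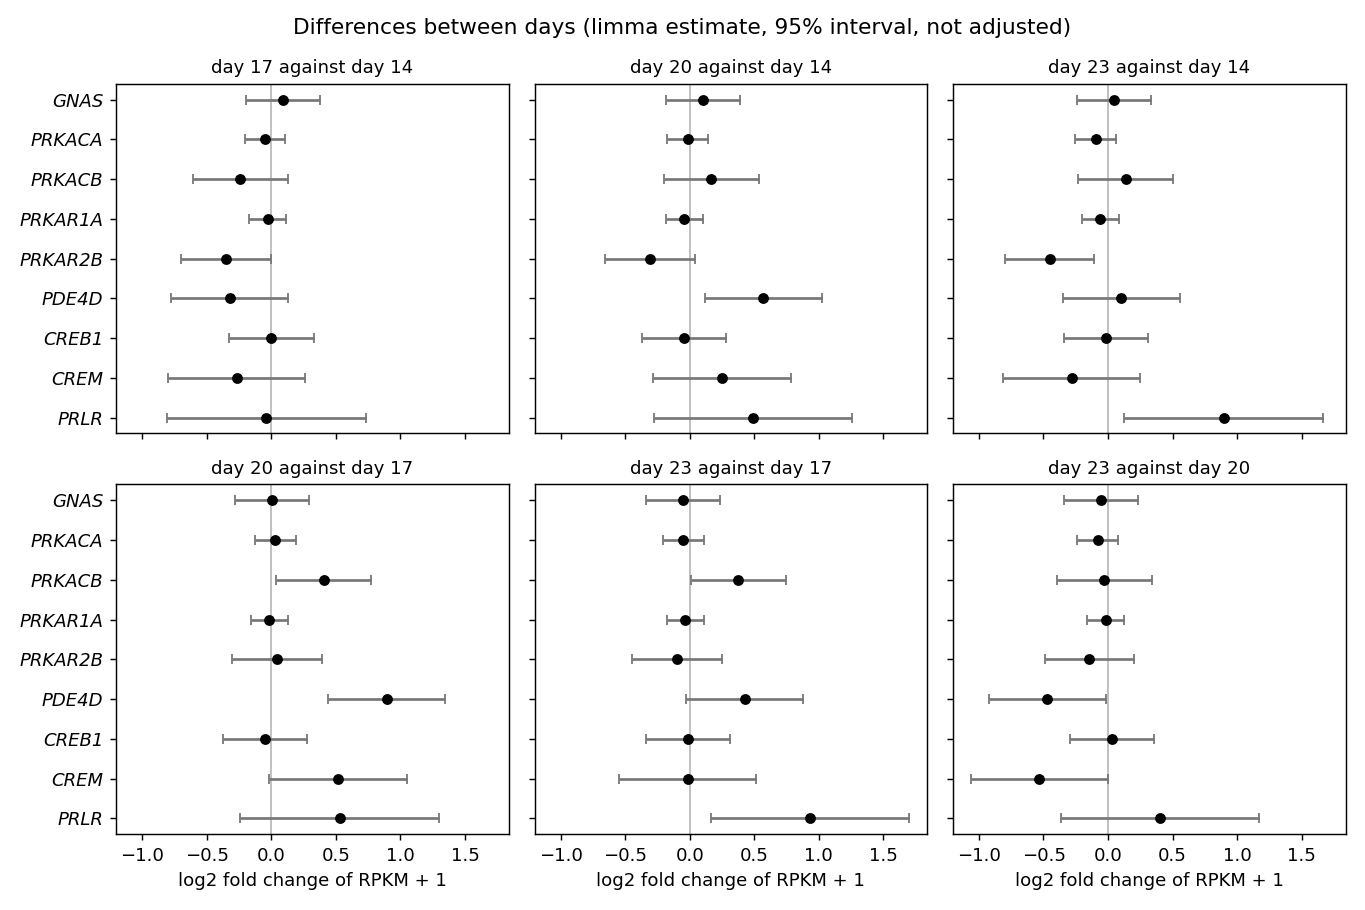
Difference in mean log2(RPKM + 1) of each of the 9 genes, for each later day against each earlier day, with 95% intervals from limma that are not adjusted for the number of genes. The largest PDE4D difference is day 20 against day 17 at 0.89, those of PRLR are 0.89 and 0.93 for day 23 against days 14 and 17, and those of PRKAR1A all lie near 0.

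CREB1 encodes CREB, the transcription factor phosphorylated by PKA, and CREM a related factor whose short forms can repress cAMP-responsive genes. CREB1 was at 5.67, 6.56, 5.46 and 6.22 RPKM on day 14, 5.12, 6.91, 4.26 and 8.27 on day 17, 6.66, 5.44, 6.25 and 4.79 on day 20, and 5.64, 5.16, 5.82 and 7.11 on day 23. Differences between days made up 0.92% of its variance, and 99.5% of the genes tested had a larger share. The lowest and the highest library were both of day 17.

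CREM was at 22.3, 25.3, 20.0 and 20.5 RPKM on day 14, 15.1, 17.7, 15.1 and 26.1 on day 17, 22.6, 29.2, 17.3 and 41.3 on day 20, and 14.4, 26.1, 20.5 and 13.1 on day 23. Day 20 had the widest spread, with the highest library of all, replicate 4, and another below every library of day 14. Its mean was 27.6 ± 10.4 RPKM, against 18.5 ± 5.23 RPKM on day 17 (SD, n = 4), with a log2 difference of 0.52 ± 0.25 (SE; limma, adjusted p = 0.63, unadjusted p = 0.056). Day 23, at 18.5 ± 5.999 RPKM, differed from day 20 by -0.53 ± 0.25 (adjusted p = 0.71, unadjusted p = 0.050). Without replicate 4 of day 20 these log2 differences were 0.31 and -0.32. RPKM of the whole gene does not separate the forms of CREM.

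The ratio of CREM to CREB1 was 3.39, 5.38, 2.76 and 8.62 in the 4 libraries of day 20, against 3.94, 3.85, 3.66 and 3.29 on day 14. In day 20, 1 library was thus below and 2 were above the narrow range of day 14 (difference of the mean log2 ratio 0.31, exact permutation test, p = 0.46), and without replicate 4 of day 20 the difference was 0.0066. On day 17 the ratio was 2.96, 2.56, 3.54 and 3.16, and 3 of these 4 were below every library of day 14. The log2 difference of day 17 against day 14 was -0.28 (exact permutation test, p = 0.057, adjusted p = 0.39 over 9 ratio tests).

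PRLR encodes the prolactin receptor, which also binds placental lactogens. It was at 11.8, 7.08, 7.27 and 18.5 RPKM on day 14, 9.26, 16.7, 4.43 and 14.3 on day 17, 16.6, 20.6, 13.4 and 10.9 on day 20, and 13.2, 22.5, 29.3 and 18.7 on day 23. The 3 highest libraries included 2 of day 23, but the lowest of day 23 lay inside the range of each earlier day. The highest library was 6.601 times the lowest, and the SD within days, 0.57 on the log2(RPKM + 1) scale, was larger than in 95.7% of the genes tested.

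Day 23 averaged 20.9 ± 6.74 RPKM of PRLR, against 11.2 ± 5.35 RPKM on day 14 (SD, n = 4), a ratio of means of 1.87 and a log2 difference of 0.89 ± 0.36 (SE). The adjusted p was 0.32 by limma and the unadjusted one 0.026. Against day 17, at 11.2 ± 5.44 RPKM, the log2 difference of day 23 was 0.93 ± 0.36 (adjusted p = 0.33, unadjusted p = 0.021), with the same day 23 libraries. Leaving out replicate 3 of day 17, whose PRLR level was the lowest of the 16, brought this to 0.59. Day 20, at 15.4 ± 4.18 RPKM, differed from day 14 by 0.49 ± 0.36 (adjusted p = 0.81), or by 0.75 without replicate 4 of day 14. The F test over all 4 days gave an adjusted p of 0.45 (unadjusted p = 0.063).

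The 5 tested genes whose levels went most closely with PRLR over the 16 libraries were IDS, GPM6B, UTRN, TMTC1 and TSPYL4, with Pearson correlations of log2(RPKM + 1) of 0.87, 0.87, 0.85, 0.85 and 0.81. Within days, in the same libraries that picked these genes, the correlations were 0.84, 0.78, 0.95, 0.85 and 0.81. IDS, the lysosomal enzyme iduronate 2-sulfatase, had 25.2 to 45.7 RPKM, and UTRN, the dystrophin relative utrophin, 18.3 to 31.0 RPKM. These are the top of all genes tested, from the same 16 libraries, and are a description.

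At an unadjusted p under 0.05 there were 1 or 2 of the 9 genes in each comparison, which is set here beside the share over all genes tested. For day 17 against day 14, 1 of 9 (PRKAR2B) was under it and 7.57% of all genes; for day 20 against day 14, 1 (PDE4D) and 8.11%. For day 23 against day 14 there were 2 (PRKAR2B and PRLR) and 12.6%. For day 20 against day 17 there were 2 (PDE4D and PRKACB) and 8.17%, for day 23 against day 17 there were 2 (PRKACB and PRLR) and 11.7%, and for day 23 against day 20 there was 1 (PDE4D) and 7%. The F test gave 1 (PDE4D) and 11.7%. With voom the counts were 1, 1, 2, 3, 2, 0 and 2 of 9 in the same order. Of all 13361 genes, voom had 1072, 1075, 1625, 1047, 1502, 948 and 1535 under 0.05 in that order. CREM joined for day 20 against day 17 and PRLR in the F test, while PDE4D dropped out for day 23 against day 20 (voom, unadjusted p = 0.051). Whether any of these counts differs from the share over all genes was not tested.

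Apart from PDE4D on days 20 and 17, none of the 9 genes had libraries of one day all above or all below those of another. Over all genes tested, this held for 3.27% between days 17 and 14, 5.21% between days 20 and 14, 6.96% between days 23 and 14, 6.5% between days 23 and 17 and 4.45% between days 23 and 20. By sign alone, 7 of 9 differences were positive for day 20 against day 17, where 42.9% of all genes were. For the other pairs it was 2 of 9 for day 17 against day 14, 5 for day 20 against day 14, 4 for day 23 against day 14, 3 for day 23 against day 17 and 2 for day 23 against day 20, where 53.5%, 45.2%, 43.3%, 39.96% and 44.9% of all genes were positive. For day 20 against day 17, GNAS, PRKACA and PRKAR2B counted as positive at log2 differences of only 0.008, 0.03 and 0.05. The 9 genes were read in the same libraries, so they are not 9 separate observations, and these counts were not tested. Replicate 3 of day 17 was the lowest of the 16 libraries in 4 of the 9 genes (PRLR, PDE4D, PRKAR2B and CREB1) and the highest in 1 (GNAS).

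Other genes of the pathway were read from 9 lists of 151 genes, of which 145 were found and 118 tested. None passed at an adjusted p under 0.05 in any comparison by limma. At an unadjusted p under 0.05 there were 3 of 118 for day 17 against day 14, where 7.57% of all genes were, 11 for day 20 against day 14 (8.11%) and 15 for day 23 against day 14 (12.6%). There were 14 each for day 20 against day 17 (8.17% of all genes), day 23 against day 17 (11.7%), day 23 against day 20 (7%) and the F test (11.7%). The lists were chosen with earlier results of these data known, so counts within them are a description.

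Of 18 tested adenylyl cyclases and G protein subunits, 0 passed and the median log2 difference of day 23 against day 14 was -0.04, where that of all genes was -0.03. ADCY4, a cyclase, was at 9.67 ± 0.65 RPKM on day 23, against 14.5 ± 3.13 RPKM on day 17 (SD, n = 4; limma, adjusted p = 0.17). The most abundant were GNAI2, an inhibitory alpha subunit with 166 to 216 RPKM over the 16 libraries, and GNB1, a beta subunit with 158 to 184 RPKM. GNB5, another beta subunit, was at 19.2 to 25.8 RPKM.

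Among 16 tested further PKA subunits, inhibitors and anchors, PRKAR1B was at 6.05 ± 0.50 RPKM on day 17, against 4.77 ± 0.56 RPKM on day 14 (limma, adjusted p = 0.61). PKIG, a PKA inhibitor, was at 16.2 ± 1.78 RPKM on day 23, against 24.9 ± 3.78 RPKM on day 17 (limma, adjusted p = 0.18). The anchoring proteins AKAP12 and AKAP2 had 19.6 to 56.6 and 21.4 to 33.1 RPKM, and AKAP8 had 7.90 to 9.99 RPKM. Of 11 other tested phosphodiesterases 0 passed. PDE2A (21.9 to 39.2 RPKM) and PDE8A (18.3 to 24.6 RPKM) were the most abundant, PDE1A had 2.05 to 3.596 RPKM, and PDE4B, a close relative of PDE4D, was at 7.58 ± 1.78 RPKM on day 20, against 6.53 ± 2.44 RPKM on day 17 (limma, adjusted p = 0.88).

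The cAMP-activated exchange factors RAPGEF3 and RAPGEF4 had 16.2 to 27.8 and 4.73 to 11.2 RPKM, and their target RAP1B 10.6 to 15.3 RPKM. None of 4 tested genes of that list passed, and 0 of 4 had a positive difference for day 23 against day 14, where 43.3% of all genes did and the endothelial marker sum was lower on day 23. Of 11 genes of receptor desensitisation, 10 had a positive difference for day 17 against day 14, where 53.5% of all genes did, and 2 for day 23 against day 17, where 39.96% did. Both comparisons use the day 17 libraries. RGS5, a regulator of G protein signalling that also marks pericytes, was the highest at 62.0 to 244 RPKM. ARRB1 (arrestin), RGS3 and GRK2 (a receptor kinase) had 8.76 to 15.9, 9.57 to 18.6 and 24.5 to 39.9 RPKM, and RGS16 had 47.0 RPKM in replicate 4 of day 20 and at most 8.29 RPKM in the other 3 libraries of that day.

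Of 18 tested CREB relatives and coactivators, ATF4, a stress-responsive factor, was the highest. It was at 260 ± 21.6 RPKM on day 20, against 204 ± 8.55 RPKM on day 17 (SD, n = 4; limma, adjusted p = 0.49 for this pair, F test over the 4 days 0.33). CRTC1, a CREB coactivator, was at 8.73 ± 0.65 RPKM on day 20, against 11.0 ± 0.67 RPKM on day 17 (limma, adjusted p = 0.40 for this pair, F test 0.29). CREB3L1 had 47.3 to 68.7 RPKM. SIK1, a kinase that holds back CREB coactivators, had 152 RPKM in replicate 4 of day 20, which also had the highest CREM, against 11.9 to 76.0 RPKM in the other libraries.

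Of 8 tested receptors that couple to the stimulatory G protein, 0 passed. ADORA2A, an adenosine receptor, was at 4.68 ± 0.88 RPKM on day 20, against 7.33 ± 0.80 RPKM on day 17 (limma, adjusted p = 0.40 for this pair, F test 0.26). CALCRL and VIPR2 had 6.33 to 18.1 and 3.83 to 15.6 RPKM. Of 13 tested genes of prolactin receptor signalling, 9 had a positive difference for day 23 against day 17, where 39.96% of all genes did. It was 6 of 13 both for day 23 against day 14 and for day 23 against day 20, where 43.3% and 44.9% of all genes were positive. STAT5B, a transcription factor downstream of the receptor, was at 13.1 ± 0.996 RPKM on day 23, against 10.7 ± 0.63 RPKM on day 14 (limma, adjusted p = 0.16 for this pair, F test 0.33). SHC1, an adaptor, was at 79.4 ± 4.71 RPKM on day 23, against 106 ± 9.61 RPKM on day 17 (limma, adjusted p = 0.14 for this pair, F test 0.21). STAT3 had 78.9 to 119 RPKM, and SOCS3, a feedback inhibitor, 7.21 to 55.1 RPKM.

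Of 19 tested genes known as cAMP-responsive in luteal or granulosa cells, 0 passed in any comparison. For day 20 against day 17, 15 of 19 had a positive difference, with a median of 0.41, where 42.9% of all genes were positive and their median was -0.03. For day 23 against day 20 it was 4 of 19, with a median of -0.40 (44.9% of all genes), and for day 17 against day 14 it was 1 of 19, with a median of -0.33 (53.5%). For day 20 against day 14 it was 11 of 19, with a median of 0.18 (45.2%), for day 23 against day 17 it was 11, with a median of 0.03 (39.96%), and for day 23 against day 14 it was 3, with a median of -0.29 (43.3%). The list was chosen with earlier results of these data known, and neighbouring comparisons share libraries. The 19 genes were read in the same libraries and are not 19 separate observations. These counts are therefore a description and not a test. The list mixes early response genes such as JUNB with steroidogenic enzymes, and its named members moved unequally. For day 20 against day 17 the log2 difference was 1.13 for PER1, 0.11 for HSD3B1 and 0.04 for CYP11A1. Whether the counts follow cAMP or another stimulus was not tested.

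PER1, a clock gene induced by cAMP, was at 40.6, 40.3, 37.9 and 60.3 RPKM on day 20, against 21.0, 19.2, 19.1 and 18.8 RPKM on day 17. All 4 libraries of day 20 were above those of day 17, with a log2 difference of 1.13 and an adjusted p of 0.32 by limma. Between these days 4.56% of all genes tested did not overlap. JUNB, an early response gene, was at 91.6 ± 30.2 RPKM on day 20, against 38.2 ± 9.26 RPKM on day 17 (SD, n = 4; adjusted p = 0.45). EREG, an epidermal growth factor ligand induced by luteinizing hormone in follicles, was at 1.41, 2.69, 1.19 and 1.74 RPKM on day 23, against 17.2, 9.91, 12.2 and 27.1 RPKM on day 14. Days 23 and 14 did not overlap, which held for 6.96% of all genes tested, with a log2 difference of -2.61 and an adjusted p of 0.063 by limma. EREG was already lower in mean on days 17 and 20, at 3.64 ± 1.85 and 3.96 ± 2.89 RPKM. Its log2 differences from day 14 were -1.93 and -1.90 on those days (limma, adjusted p = 0.61 and 0.14). The steroidogenic enzymes HSD3B1 and CYP11A1 had 4141 to 6919 and 2922 to 5261 RPKM, with limma F tests over the 4 days at an adjusted p of 0.70 and 0.95.

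**Figure D4:**
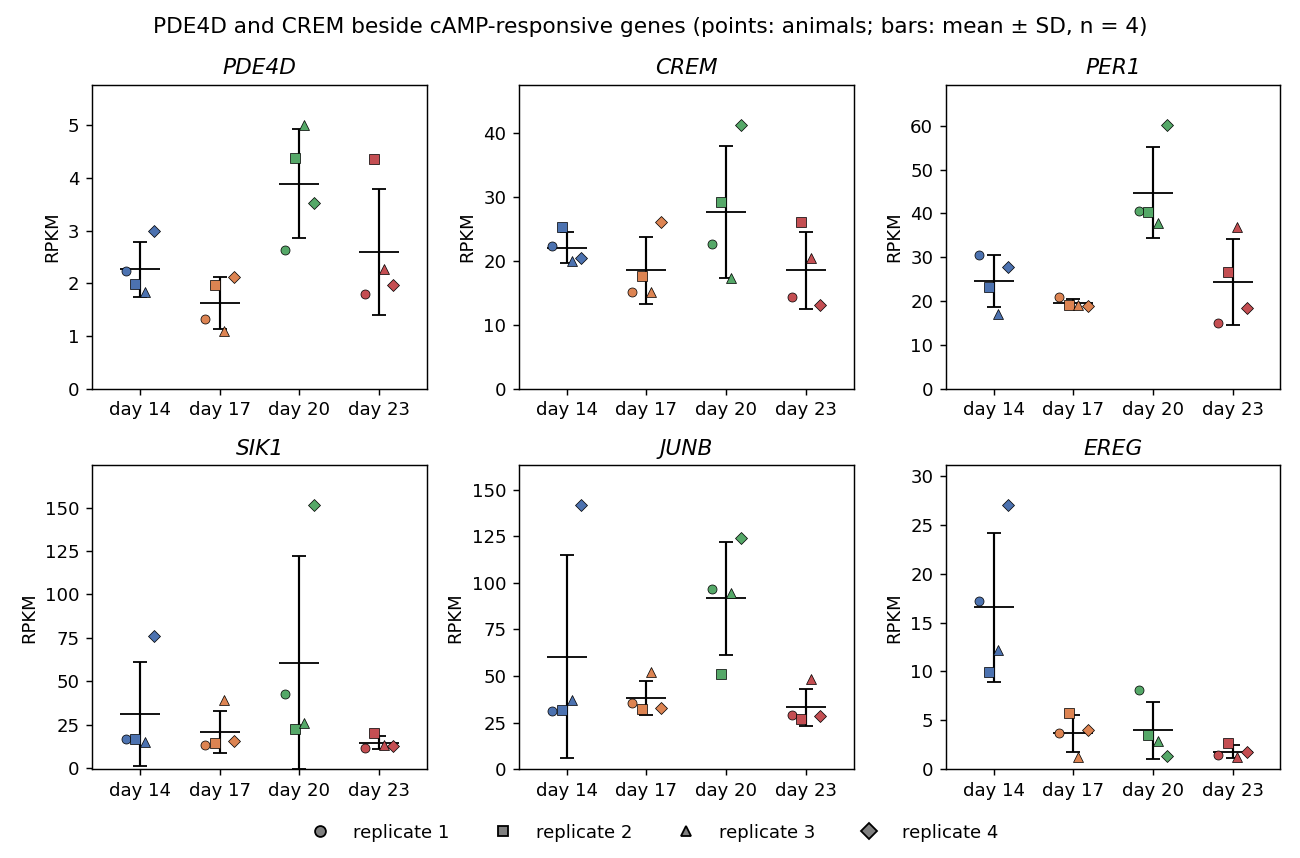
Level (RPKM) of PDE4D, CREM, PER1, SIK1, JUNB and EREG in the 16 corpora lutea by day of pregnancy; points are animals, horizontal lines means and error bars SD (n = 4). PER1 on day 20 (37.9 to 60.3 RPKM) lies above all libraries of day 17 (18.8 to 21.0 RPKM), and SIK1 reaches 152 RPKM in 1 library of day 20.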

How the data were processed

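Per the labels' protocols, the library kit was TruSeq Stranded mRNA, and the quality index of each RNA was above 8.5. The tools in the submitters' processing notes are HISAT2 2.1.0, featureCounts 1.5.3, bedtools 2.26.0, DESeq2 and FastQC, with the build ARS-UCD1.2. The use of strand in counting is not stated there. The authors deposited RPKM per gene for the 16 libraries. The deposited table also holds the authors' p-values, raw and adjusted, with no method or comparison in the header; they are quoted as the authors' own. RPKM carries no correction for a few genes that take up many reads. Every column of library values was matched to a sample. Whole reads were recovered from the RPKM steps for 27232 of 27233 genes, within a tolerance of 0.05, and used for depth and for voom only. No 2 libraries were identical.

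Values were tested as log2(RPKM + 1) with limma 3.58.1 in R 4.3.3, with 1 mean per day, all 16 libraries, eBayes with an intensity trend, a filter of RPKM 1 or more in 4 or more libraries, and Benjamini-Hochberg adjustment over 13361 genes at 0.05. The code was tested on simulated data. Ratios were tested by exact two-sided permutation in Python with scipy 1.17.1. The planned ratio of LHCGR to PRLR was not run, which left 9 ratio tests. No block was used, because the labels do not say what a replicate number marks. Deviations of same-numbered replicates of different days had correlations of -0.23 to 0.21. Members and lists were chosen with earlier results of these data known. Named genes were all members, per list the 3 with the smallest F test p and the 2 with the highest mean, and the 5 genes most like PRLR; 1 gene that the rule names is not reported here but stays in the tests and counts of its list. The plan did not fix which pair of days is shown for a gene of a list. It was often the pair with the smallest p of the 6, and the adjusted p does not cover that choice. Alternatives were other pseudocounts, filters, scalings and models, voom, only the 8 libraries compared, a replicate block and each library left out.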

Additional observations from a re-analysis of the deposited data

Results flagged for a closer look

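In 17 of 196 groups of 4 libraries (8.67%), among the genes and ratios described above, 1 library stood far from the other 3. Independent normal values would give about 1 in 20. The groups share the same 16 libraries and levels were taken on the linear RPKM scale, so an excess over chance was not tested. None of the 36 groups of the 9 cAMP and prolactin receptor genes held such a library. On day 14, replicate 4 stood apart for JUNB (142 RPKM, nearest 36.9), SIK1 (76 RPKM, nearest 17.1), SOCS3 (31.1 RPKM, nearest 14) and PDE2A (37.2 RPKM, nearest 29.4). Replicate 1 of day 14 stood apart for ARRB1 (10.1 RPKM, nearest 14.2), CRTC1 (10.6 RPKM, nearest 9.57) and PDE8A (24.5 RPKM, nearest 22.4), and replicate 3 for VIPR2 (15.6 RPKM, nearest 7.27). On day 17, SIK1 was at 39.2 RPKM in replicate 3 (nearest 15.8) and PKIG at 30.5 RPKM in replicate 2 (nearest 23.4). On day 20, replicate 4 stood apart for SIK1 (152 RPKM, nearest 42.6), PER1 (60.3 RPKM, nearest 40.6) and RGS16 (47 RPKM, nearest 8.29), and replicate 1 for RAPGEF4 (6.36 RPKM, nearest 5.29). On day 23, CRTC1 was at 12.3 RPKM in replicate 1 (nearest 10), JUNB at 48.2 RPKM in replicate 3 (nearest 29.2) and RAP1B at 13.3 RPKM in replicate 4 (nearest 11.4).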

How the results depend on the processing

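None of the 9 genes passed in any of the 27 alternative fits, and the smallest adjusted p was 0.15, for PRKAR2B on day 23 against day 14 without replicate 2 of day 14. Counts over all genes moved from 0. For day 20 against day 14 they were 1 with a pseudocount of 0.1 and 20 with only the 8 libraries compared. For day 23 against day 14 they were 2 without a filter, 2 with a mean RPKM of at least 5, 2 with the replicate block, 1 with robust eBayes and 13 with only the 8 libraries compared. With 1 library left out, counts were 0 to 1 for day 17 against day 14, 0 to 32 for day 20 against day 14, 0 to 22 for day 23 against day 14, 0 to 1 for each of the other 3 pairs and 0 to 22 for the F test, the 32 and both 22 without replicate 3 of day 17. The log2 ratio of PRKACB to PRKACA on day 20 against day 14 (0.19) ranged from -0.0047, without replicate 2 of day 20, to 0.31. With 1 library left out, that ratio on day 17 against day 14 was -0.37 to -0.037, and the log2 ratio of CREM to CREB1 was 0.0066 to 0.55 on day 20 and -0.53 to -0.044 on day 23, each against day 14. The cause was not tested. The log2 difference of PDE4D for day 20 against day 17 was 0.79 to 1.03 with 1 library left out and up to 1.29 with voom; PDE4D could not be tested at a mean RPKM of at least 5. The replicate block changed no call of the 9 genes. Other scalings moved the median of all genes by at most 0.048 (log2). With 4 animals a day, a gene that was not called is not thereby shown to be unchanged.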
